A study of Caenorhabditis elegans with 4 samples.

Results

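The annular furrow collagens of the nematode Caenorhabditis elegans are 6 cuticle collagens encoded by dpy-2, dpy-3, dpy-7, dpy-8, dpy-9 and dpy-10. The 6 genes were taken by name and found among the 20341 genes that the array probes could be assigned to, through the sequence name of each probe. They were covered by 10 probes. Of the 6 genes, 5 had a usable value in all replicates and entered the test over 13685 genes. The exception was dpy-2, whose only probe was flagged by the scanner software as a non-uniform spot on the array of replicate 2.

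The cuticle is secreted by the epidermis and is rebuilt at each molt. Cuticle collagen genes are transcribed in successive waves within each larval stage, and the furrow collagens belong to an early wave. Their products assemble into the circumferential furrows of the cuticle, and a mutant that lacks any of them loses these furrows and is dumpy, that is, short and fat. Loss of the furrows also switches on epidermal osmotic, detoxification and antimicrobial programs. The dpy-7 promoter is widely used to drive expression in the epidermis.

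RNA of whole synchronized larvae, collected in the middle of the fourth larval stage (L4) after growth at 20 C on OP50 bacteria, was compared on 4 arrays carrying both genotypes each. The control genotype was isp-1(qm150), in which the Rieske subunit of complex III of the mitochondrial respiratory chain is mutated. It was set against isp-1(qm150);ceh-23(ms23), called the double mutant, in which the homeobox gene ceh-23 is mutated as well, to find transcripts that respond to ceh-23 when respiration is impaired. There were 3 replicates, and replicate 1 was hybridized on a first array and again with exchanged dyes on a dye flip array, so its ratio is the mean of that pair. No wild-type sample was analysed here, both genotypes carried qm150, and the number of animals per sample is not given in the sources used here. The labels do not say what made the replicates separate, so p-values measure only the spread between these 3 samples.

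The median spot signal was 109.5 to 216 in Cy5 and 164 to 258.5 in Cy3, 62.2% to 78.4% of spots were well above background, and none was saturated. In a fit without a filter on dim probes, log2 ratios were -0.09 for the single ceh-23 probe (SD 0.10, n = 3, adjusted p = 0.459 in limma) and 0.08 for isp-1 (SD 0.10, adjusted p = 0.535). Where the ceh-23 probe lies relative to the ms23 lesion is not given in the files, so its ratio checks neither genotype. Ratios are double mutant over isp-1, so that values above 0 stand for more signal in the double mutant.

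Of the 6 furrow collagens, 5 had a higher normalized signal in the double mutant on all 4 arrays, and dpy-3 had a lower one on all 4. Mean ratios of the 5 ran from 1.47-fold to 1.67-fold, whereas dpy-3 was 1.38-fold lower. None of the 5 genes tested passed an adjusted p of 0.05 in limma, although each had an unadjusted p under 0.05. Over all genes tested, 3.37% passed, with 0.775% that rose and 2.59% that fell. Without adjustment, 4 members were higher, as were 13.6% of all genes, and 1 was lower, as were 22.3%.

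The dpy-7 gene (F46C8.6, chromosome X), a furrow collagen with 2 probes, had normalized intensities of 3252 in the double mutant and 2062 in isp-1 on the dye flip array of replicate 1. They were 3368 and 2503 on the first array, 3064 and 1280 in replicate 2, and 1458 and 1162 in replicate 3. The double mutant was higher within each array, but signals differed so much between arrays that its lowest value lay below 2 of the isp-1 values. The log2 ratios were 0.66, 0.43, 1.26 and 0.33 in the same order, with a mean of 0.71 (SD 0.49, n = 3, 95% confidence interval 0.25 to 1.17, adjusted p = 0.0683). Replicate 2 had the highest ratio, and without it the mean was 0.435.

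For dpy-9 (T21D12.2, chromosome IV), which also had 2 probes, the double mutant and isp-1 signals were 2207 and 1354 on the dye flip array and 2142 and 1530 on the first array of replicate 1. They were 2003 and 864 in replicate 2 and 1054 and 800 in replicate 3. Again the double mutant was higher within each array, and replicate 2 stood above the others. Its log2 ratios of 0.70, 0.49, 1.21 and 0.40 gave a mean of 0.74 (SD 0.43, n = 3, 95% confidence interval 0.32 to 1.15, adjusted p = 0.0576), which ranked 77 from the top among the 13685 genes.

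The genes dpy-10 (T14B4.7, with 3 probes) and dpy-2 (T14B4.6, with 1) both lie on chromosome II, with a single annotated gene between them. Signals of dpy-10 in the double mutant and in isp-1 were 5703 and 3206 on the dye flip array, 5539 and 4523 on the first array, 3918 and 1972 in replicate 2, and 2003 and 1637 in replicate 3. The matching log2 ratios were 0.83, 0.29, 0.99 and 0.29, with a mean of 0.61 (SD 0.35, n = 3, 95% confidence interval 0.25 to 0.98, adjusted p = 0.062). A high ratio thus came from the dye flip array and replicate 2, and a low one from the other two arrays. Signals of dpy-2 were 14079 and 8378, 12134 and 9518, 7812 and 3640, and 4231 and 3069 on the same arrays, with log2 ratios of 0.75, 0.35, 1.102 and 0.46. The highest of these is from the flagged spot of replicate 2. With that spot kept, the dpy-2 mean was 0.70 (SD 0.35, n = 3, 95% confidence interval 0.34 to 1.07, limma adjusted p = 0.0536 over 13820 genes), and without replicate 2 it was 0.51 (SD 0.06, n = 2, adjusted p = 0.195).

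The dpy-8 gene (C31H2.2, chromosome X), read by 1 probe, had signals of 16933 and 15337 on the dye flip array, 20629 and 10747 on the first array, 13669 and 8301 in replicate 2, and 8118 and 6117 in replicate 3. Its log2 ratios of 0.14, 0.94, 0.72 and 0.41 differed most between the arrays of replicate 1, which held the same RNAs. Averaging that pair gave the smallest spread among the members, with a mean of 0.56 (SD 0.16, n = 3, 95% confidence interval 0.29 to 0.82, adjusted p = 0.0501). This adjusted p lies just above the threshold, in a region where 459 of the 461 genes that passed had adjusted p-values between 0.049 and 0.05.

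The dpy-3 gene (EGAP7.1, chromosome X), also read by 1 probe, was the member with the opposite sign. Its signals in the double mutant and in isp-1 were 134916 and 195878 on the dye flip array, 99190 and 130964 on the first array, 90538 and 141911 in replicate 2, and 75660 and 91106 in replicate 3. The isp-1 channel was the brighter in each pair. The log2 ratios were -0.54, -0.40, -0.65 and -0.27, with a mean of -0.46 (SD 0.19, n = 3, 95% confidence interval -0.74 to -0.19, adjusted p = 0.0627). Among all genes tested this ratio lay at percentile 13.3, against percentiles of 98.3 to 99.4 for dpy-7, dpy-8, dpy-9 and dpy-10. With its flagged spot kept, dpy-2 lay at percentile 99.3 in the fit over 13820 genes. The dpy-3 spot ranked between 52 and 260 of 43803 spots in brightness. It was not saturated, and its ratio stayed below 0 under all 20 other settings, from -0.56 to -0.36. The value nearest to 0 came from median centring, which fits no curve against brightness. In that setting the dpy-3 SD was 0.50, compared with 0.19 as reported, and its unadjusted p was 0.179 in limma. Before normalization the dpy-3 log2 ratio in replicate 3 was 0.85, on an array with a raw median of 0.70. By the scanner's log ratio it was -0.23 there. The sign in replicate 3 therefore depends on how brightness is normalized.

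**Figure D1:**
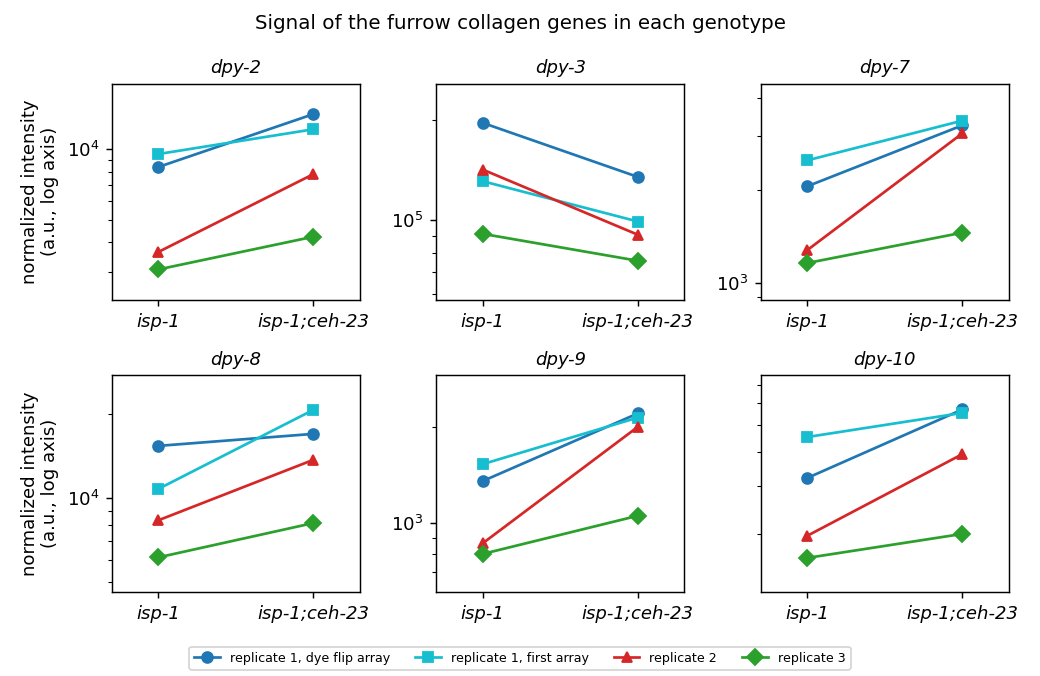
Normalized intensity of each furrow collagen gene (arbitrary units, logarithmic axis, geometric mean over its probes) in isp-1 and in the double mutant, with a line joining the 2 channels of each array. The lines run upward on all 4 arrays for dpy-2, dpy-7, dpy-8, dpy-9 and dpy-10 and downward for dpy-3, while the arrays differ in height.

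On the log2 intensity scale the SD between replicates within a genotype was 0.31 to 0.83, about as large as the differences between genotypes, and whole arrays were brighter or dimmer together. For dpy-7 they were 11.26 (SD 0.65) in the double mutant and 10.55 (SD 0.52) in isp-1, and for dpy-3 they were 16.5 (SD 0.31) and 16.96 (SD 0.43). The ratio within an array removes this shared variation. Ordered by mean log2 ratio, dpy-9 (0.74), dpy-7 (0.71), dpy-2 (0.70), dpy-10 (0.61) and dpy-8 (0.56) followed each other in steps smaller than the SD of either neighbour, so their order is not resolved. The difference between dpy-3 and the others was not tested.

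**Figure D2:**
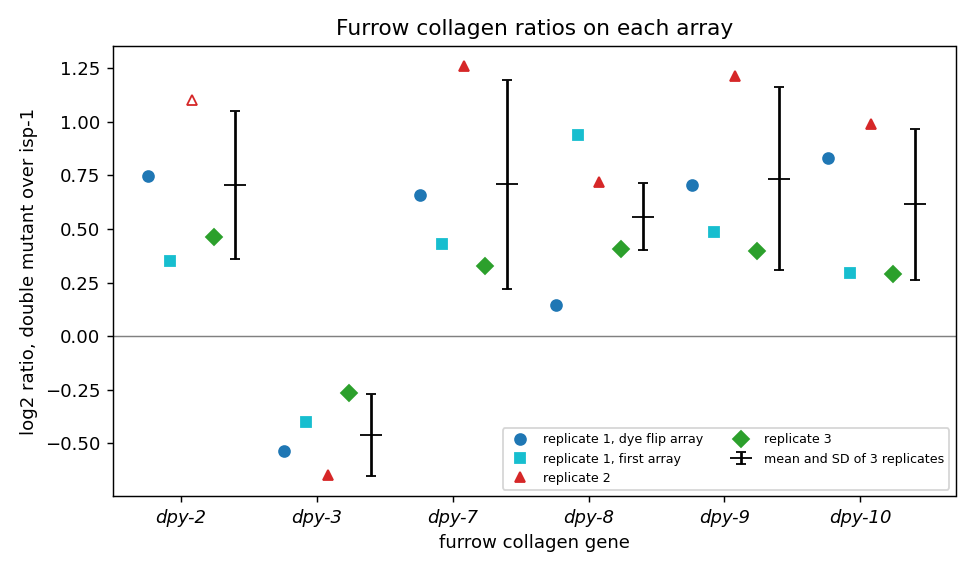
Log2 ratio of the double mutant over isp-1 for each furrow collagen gene on each of the 4 arrays, with the mean and SD of the 3 replicates as bars and the flagged dpy-2 spot as an open triangle. In 5 genes the values lie above 0 on each array, with replicate 2 the highest in 4 of them, and for dpy-3 they lie between -0.65 and -0.27.

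The 5 genes with positive ratios moved together from replicate to replicate. Their ratios lay within 0.54 to 0.59 in replicate 1, 0.72 to 1.26 in replicate 2 and 0.29 to 0.46 in replicate 3. In the same replicates dpy-3 stood at -0.47, -0.65 and -0.27, so it was also farthest from 0 in replicate 2 and nearest in replicate 3. The median over all genes stayed near 0, at -0.02, -0.05 and 0.02. Replicate SDs of the tested members had a median of 0.35, compared with 0.18 over all genes. Both slides gave the same directions, with a median over the 6 members of 0.55 on the slide of replicate 1 and 0.71 on the slide of replicates 2 and 3. In the normalized values, dye orientation moved with the size of the ratio. For dpy-2, dpy-3, dpy-7, dpy-9 and dpy-10, both arrays with the double mutant in Cy5 gave a ratio farther from 0 than either array with it in Cy3. For dpy-10 the means were 0.91 and 0.29, for dpy-7 they were 0.96 and 0.38, and for dpy-8 they ran the other way at 0.43 and 0.67. The larger ratio on both Cy5 arrays held for 40.8% of all genes with 1 sign on all 4 arrays, and 5.45% had the reverse pattern. Replicates 2 and 3 each had 1 dye orientation, so dye and replicate cannot be told apart there. By the scanner's log ratio, dpy-3 had -0.88 on the first array of replicate 1 and -0.47 on the dye flip array, the reverse order. For dpy-2 these were 0.62 and 0.63, whereas both dpy-9 probes kept the larger ratio on the dye flip array. With dye as a covariate in the limma fit, dpy-7, dpy-8, dpy-9 and dpy-10 rose and dpy-3 fell (adjusted p = 0.0178 to 0.0204), and 30.3% of all genes passed. This covariate is balanced over the 3 replicate values, so by construction it leaves the mean ratios as they were and changes only the spread around them.

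All 10 probes were well above background in both genotypes on all 4 arrays, and 9 of them kept 1 sign on the 4 arrays. The dpy-7 probes had mean log2 ratios of 0.74 and 0.68, at median signals of 2322 to 15711 for one and 296 to 776 for the other. Those of dpy-9 gave 0.77 and 0.70. Of the dpy-10 probes, 2 gave 0.69 and 0.70. The third, at median signals of 281 to 762.5, gave 0.45 and had a ratio of -0.05 in replicate 3. The probe means of a gene therefore differed by less than the replicate SD of the gene. On single arrays probes could differ more. The dpy-7 probes gave 0.14 and 0.71 on the first array of replicate 1, and 0.99 and 0.33 on its dye flip array. The dpy-10 probes are named for isoforms a and b. Probes of a gene read RNA of the same gene in the same samples, so they are not independent replicates.

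Of the 5 tested members, 4 were higher on all 4 arrays, as were 20.9% of all genes, and 1 was lower, as were 25.3%. Requiring at least 1.5-fold as well left dpy-7, dpy-9 and dpy-10, with 1.37% of all genes higher and 7.89% lower by that rule. The median log2 ratio of the tested members was 0.61, and that of all genes was -0.01.

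**Figure D3:**
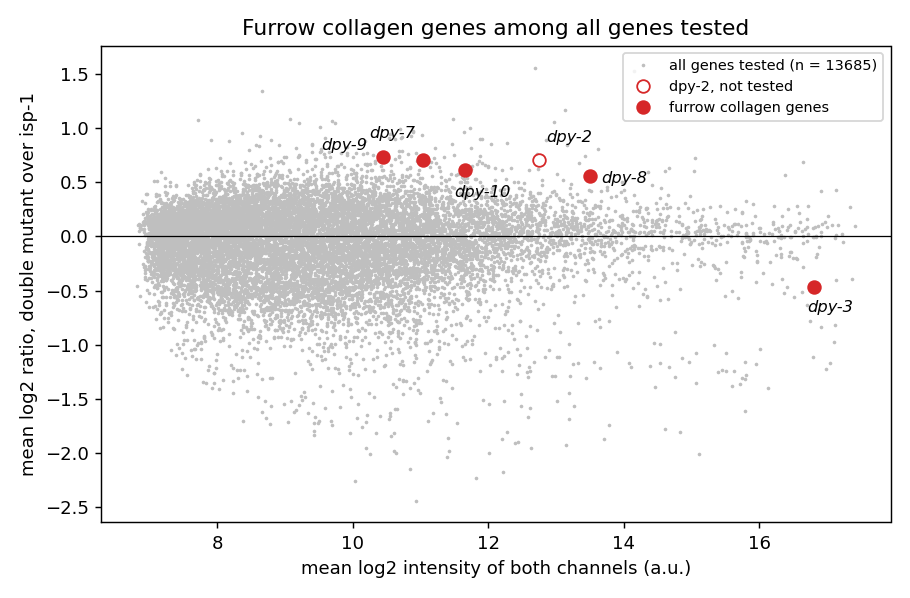
Mean log2 ratio against mean log2 intensity of both channels (arbitrary units) for all 13685 genes tested in grey and the furrow collagens in red, with dpy-2 open because it was not tested. The members above 0 lie near the upper edge of the cloud, and dpy-3 lies below 0 at its bright end.

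Among 14 other cuticle collagens with body shape mutants, 12 were tested and none rose or fell. Their median log2 ratio was 0.18, with a range of -0.20 to 0.48 and 9 above 0. The highest was dpy-14, a collagen needed for normal body length, at 0.48 (SD 0.29, adjusted p = 0.0762). In rol-6 and rol-8, mutations make the animal roll. Their ratios were 0.38 (SD 0.08, adjusted p = 0.0676) for rol-6 and 0.34 (SD 0.17, adjusted p = 0.0938) for rol-8. The dpy-17 ratio of 0.43 came largely from replicate 2 (SD 0.57, adjusted p = 0.192), dpy-5 had 0.19 and the blister gene bli-6 had -0.20. Without replicate 3, 4 of the 12 rose. Of all genes, 14.7% rose and 28.6% fell in that setting. Without replicate 1 these shares were 0.0658% and 0.687%, and without replicate 2 they were 0% and 0.00725%. They are the shares to set beside the counts of the lists below with a replicate left out. Of 159 collagen genes with a col number, 135 were tested, 6 rose and 12 fell, with a median of -0.16. Among the 135, 15 had a ratio at or above that of dpy-8 (0.56), led by col-41 (1.56) and col-90 (1.52). None of 137 tested passed without replicate 2, and 2 of 135 rose and 2 fell without replicate 1. Without replicate 3, 31 of 136 rose and 53 fell. The median over the same 135 genes was -0.08 without replicate 2.

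Genes for enzymes that modify, cleave and crosslink collagen were also without a call, with 0 of 14 tested genes past the threshold and a median of 0.11. The prolyl 4-hydroxylase subunit genes phy-2 and dpy-18, whose products stabilize the collagen triple helix, stood at 0.45 for phy-2 (SD 0.17, adjusted p = 0.0632) and 0.34 for dpy-18 (SD 0.08, adjusted p = 0.0789). The astacin metalloprotease genes dpy-31, which cleaves collagen propeptides, and nas-38 stood at 0.31 for dpy-31 (SD 0.04, adjusted p = 0.0847) and 0.34 for nas-38 (SD 0.06, adjusted p = 0.0743). The protein disulfide isomerase gene pdi-2 and the peroxidase gene mlt-7 both had 0.19. Of the 14, 12 had positive ratios. Without replicate 3, 4 genes of this list rose, and the median was 0.16 without replicate 2 and 0.23 with the scanner's log ratio.

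Most collagens of the adult and late L4 cuticle had ratios below 0. Of 7 genes, 6 were tested and 1 fell, namely col-7, at -1.16 (SD 0.40, adjusted p = 0.0494). The adult collagen gene col-19 had the lowest ratio, at -1.56 (SD 0.87, adjusted p = 0.0501), with -2.33 in replicate 1 and -0.61 in replicate 3. Ratios were -0.82 for col-62 (SD 0.39, adjusted p = 0.0501), -0.19 for col-63, -0.15 for bli-2 and 0.38 for rol-6. Of these, bli-2 and rol-6 are also in the body shape list. The median was -0.51, and over the same 6 genes it was -0.52 without replicate 2. The number that fell was 0 without replicate 1 or replicate 2 and 3 without replicate 3.

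Genes that act in the molt had the highest median of the 10 comparison lists, at 0.51, with 20 of 22 tested genes above 0. Of these, 5 rose and none fell. They were the nuclear receptor gene nhr-25 at 0.79 (SD 0.15), the lipocalin gene lpr-3 at 0.67 (SD 0.17), the precuticle gene let-653 at 0.78 (SD 0.32), the megalin-like receptor gene lrp-1 at 0.58 (SD 0.15) and the hedgehog-related gene qua-1 at 0.52 (SD 0.05), each with an adjusted p of 0.0494. The precuticle gene noah-1 had 0.82 (SD 0.38, adjusted p = 0.0501). The number that rose was 0 without replicate 1 or replicate 2 and 13 without replicate 3, and the median was 0.34 without replicate 2. Of the 5 that rose, let-653 was highest in replicate 2, nhr-25, lpr-3 and lrp-1 were highest in replicate 1, and qua-1 was lowest there.

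In furrow mutants, genes of osmotic protection and epidermal immunity are switched on. The list compared here mixes such genes with regulators of the response, such as osr-1, dcar-1 and snf-12. In these data 1 of its 20 tested genes rose, none fell and the median was 0.13. The count and median therefore do not measure induction of the response alone. The gene that rose was hmit-1.1, which encodes an inositol transporter induced by hypertonic stress, at 0.64 (SD 0.11, adjusted p = 0.0494). Of the antimicrobial peptide genes, nlp-27 had -0.48 (SD 0.17, adjusted p = 0.0576) and nlp-28 had -0.32 (SD 0.19, adjusted p = 0.109). The osmotic regulator gene osr-1 had 0.48 (SD 0.18, adjusted p = 0.0578), the receptor gene dcar-1 had 0.30 and the transporter gene snf-12, needed for nlp-29 induction, had 0.27. Chosen after their values were seen because they serve as reporters of furrow damage, gpdh-1, for glycerol synthesis, had 0.28 (SD 0.31, adjusted p = 0.197) and nlp-29 had 0.21 (SD 0.21, adjusted p = 0.235). The osmotic genes named up to here had positive ratios, but they were picked by small p or after their values were seen. Other osmotic genes of the list included osm-7 at 0.19, gpdh-2 at 0.11, wnk-1 at 0.01 and osm-11 at -0.02. The named antimicrobial peptide genes had ratios of both signs. The number that rose was 0 without replicate 1 or replicate 2. Without replicate 3, 4 rose and 2 fell, and with the scanner's log ratio 2 rose and the median was 0.23.

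**Figure D4:**
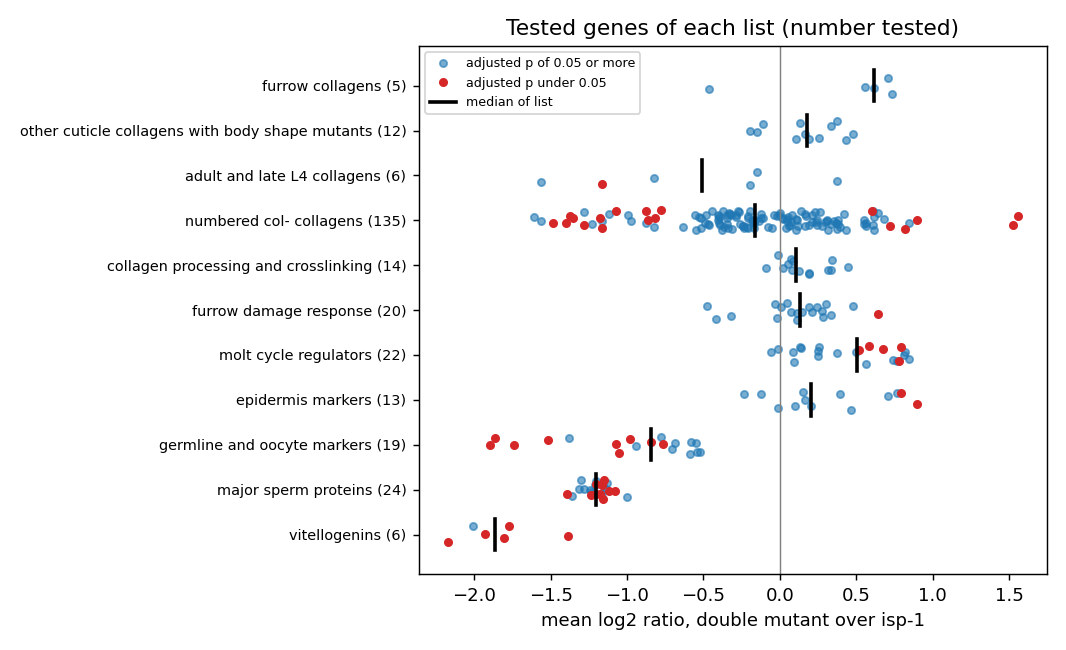
Mean log2 ratio of each tested gene of the furrow collagens and of 10 comparison lists, with red points for an adjusted p under 0.05 and a bar at the median. The furrow collagens have 4 points above 0.5 and 1 below -0.4, the molt genes lie mostly above 0, and the yolk, sperm and oocyte lists lie below -0.5.

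Of the epidermis markers, 13 of 14 were matched to probes, and all 13 passed the filter on dim probes. The list holds dpy-7 itself, and nhr-25, nhr-23 and sym-1 are also in the molt list. The median log2 ratio was 0.20 (range -0.23 to 0.90), with 10 above 0, and it was 0.44 with the scanner's log ratio. The nuclear receptor gene nhr-25, already counted among the molt genes, and the hedgehog-related gene wrt-10 rose, the latter at 0.90 (SD 0.42, adjusted p = 0.0499). The ratios were 0.76 for sym-1, which encodes a protein of the apical extracellular matrix, 0.47 for wrt-2 and 0.39 for che-14, none past the threshold. No marker rose without replicate 1 or replicate 2, and 6 rose and 1 fell without replicate 3. Genes of the yolk, germline and sperm lists had lower signals in the double mutant in the same samples. No list for another tissue was compared. Of 6 vitellogenin genes, which encode yolk proteins made in the adult intestine, 5 fell (median -1.87, range -2.18 to -1.39). Of 19 germline and oocyte markers 9 fell (median -0.84, range -1.90 to -0.52), and of 24 tested major sperm protein genes 10 fell (median -1.20, lowest -1.39). Without replicate 2 none of the yolk, germline and sperm genes passed. Without replicate 1, 5 yolk, 4 germline and 0 sperm genes fell, and without replicate 3 all 6, 19 and 24 did. These medians lay farthest from 0 in replicate 1 or 2 and nearest in replicate 3, at -0.90 for yolk, -0.46 for germline and -0.52 for sperm. Their part in the furrow collagen ratios was not tested. Each replicate had 1 sample per genotype at 1 collection point within the molt cycle, so genotype and a difference in developmental time cannot be told apart, and neither can fewer cells of a type and less RNA per cell.

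Among the 13680 tested genes that are not members, 10 were nearest to the members' median log2 ratios of 0.68, 0.39, 1.05 and 0.36 on the dye flip array, the other array of replicate 1 and the arrays of replicates 2 and 3, by Euclidean distance over the 4 arrays. The nearest was dep-1, a receptor tyrosine phosphatase gene, at a distance of 0.154 and with ratios of 0.65, 0.33, 0.95 and 0.27. It was followed by the collagen gene col-54 (0.187), F53B3.5 (0.205), the claudin-like gene clc-6 (0.206), the matrix metalloprotease gene zmp-2 (0.207), ZC443.4 (0.220), Y6D1A.2 (0.224), C29E4.15 (0.224), C15F1.2 (0.245) and the immunoglobulin domain gene zig-1 (0.253). Only C15F1.2 of these 10 passed the threshold, at a log2 ratio of 0.74 (SD 0.24, adjusted p = 0.0494). The median distance over all genes was 1.47. The members themselves lay at 0.14 for dpy-2, 0.198 for dpy-9, 0.20 for dpy-10 and 0.22 for dpy-7, at 0.84 for dpy-8 and at 2.32 for dpy-3, for which 11442 other genes were nearer. The reference is the median of these same members, so their own short distances are partly built in and do not compare evenly with those of other genes.

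Whether the members pass depended on the setting more than their ratios did. Without replicate 3, dpy-7, dpy-8, dpy-9 and dpy-10 rose and dpy-3 fell (limma adjusted p = 0.00083 to 0.00275), and 43.3% of all genes passed. Without replicate 1 or replicate 2 no member passed, and with median centring instead of loess the smallest adjusted p of a member was 0.458. Over 20 other settings dpy-7 ran from 0.44 to 0.90, dpy-8 from 0.42 to 0.69, dpy-9 from 0.50 to 0.90 and dpy-10 from 0.43 to 0.78. None of these ratios, nor that of dpy-3, changed sign, although several of the settings left the mean ratios identical.

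**Figure D5:**
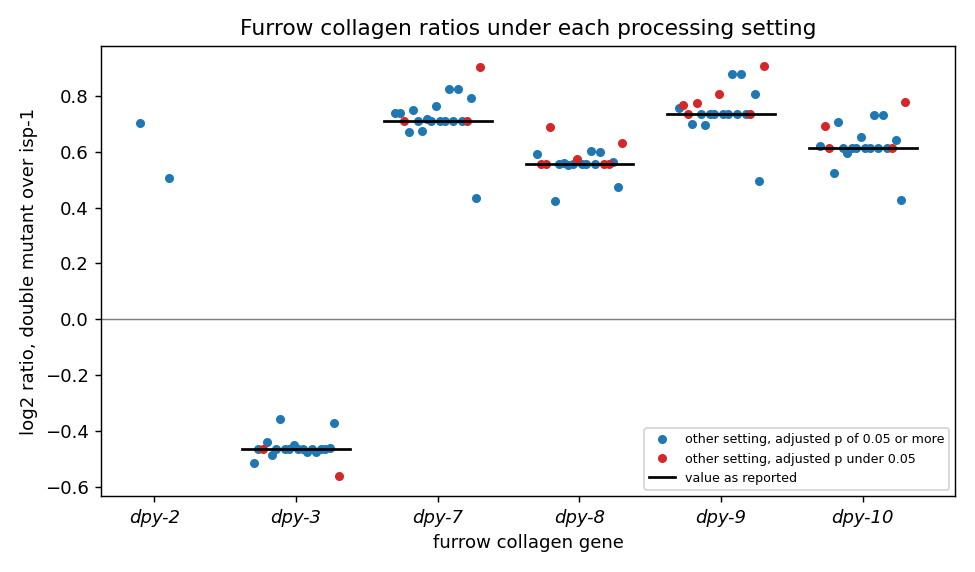
Log2 ratio of each furrow collagen gene under each other processing setting (points, red where the adjusted p was under 0.05) and as reported (bar). No point of a gene crosses 0, and dpy-2 has values under only 2 settings.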

How the data were processed

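Per the file headers, the authors scanned and quantified the arrays by Agilent Feature Extraction 10.5.1.1 (protocol GE2_105_Dec08), and the array design names genome build ce4. Per the labels, 100 ng of total RNA was linearly amplified and labelled with Cy3 or Cy5. Cy5 marked the double mutant in replicate 2 and on the dye flip array, and Cy3 marked it on the other arrays. Replicate 1 was on 1 slide, and replicates 2 and 3 on another. The deposited median intensity of each spot and its local background are raw. The other deposited columns used are 0 or 1 and flag spots that are saturated, outliers or well above background. The log10 ratio of processed Cy5 over Cy3, deposited by the authors from the scanner software and again in a series table, served as an alternative.

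Background correction was by normexp (offset 50) and normalization by loess within arrays, with control and outlier spots at weight 0, in limma 3.58.1 under R 4.3.3. Outlier spots were left out and ratios turned by the dye in the labels. Probes well above background in 1 genotype in all 3 replicates were kept (26246 of 43603). Probes were named through the RefSeq table of assembly WBcel235, so chromosomes but no positions are given (35017 of 43803 spots by sequence name, 356 by accession, 8430 unnamed). Kept probes were averaged per gene. The arrays of replicate 1 were averaged, and lmFit and eBayes gave a two-sided test of the 3 replicate values against 0, with Benjamini-Hochberg adjustment over 13685 genes and a threshold of 0.05. The script was tested on simulated data. SDs are over replicates.

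Members and comparison lists were chosen with earlier results of these data known, and no list was tested as a set. Named genes were the members, up to 6 genes of smallest p per list, the 10 nearest in profile and the mutated genes. The number of arrays limits precision. Promoter motifs and protein features were planned and not run. Alternatives covered background correction, normalization, probe filters, dye, variance moderation and each replicate left out.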

Additional observations from a re-analysis of the deposited data

How the results depend on the processing

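No furrow collagen changed sign under the other settings that gave it a value, and the median over the members moved by less than the replicate spread. For dpy-2 these were only outlier spots kept and replicate 2 left out. Aquantile scaling, both changes of the dim probe filter, the dye covariate, separate channels and the variance moderation left the members' mean ratios identical. These settings therefore say nothing about the stability of the signs. The number past the threshold did move. It was 2 that rose with a normexp offset of 0 (dpy-8 and dpy-9), 1 with a strict filter on dim probes (dpy-8), 3 with the brightest probe per gene (dpy-8, dpy-9 and dpy-10), 1 without the first array of replicate 1 (dpy-9), 1 without the dye flip array (dpy-8), 4 with a variance trend and robust moderation and 4 with dye as a covariate, where 1 fell as well. Leaving out 1 replicate each gave 0 to 4 that rose and 0 to 1 that fell. The cause was not tested. The 461 genes past the threshold became 1734 with the scanner's log ratio and 1736 with the series table (43.7% of them rose in both, compared with 23%), 1491 with offset 0, 2 without background correction, 0 in limma with median centring (1476 at an unadjusted p of 0.05), 1 without the filter on dim probes, 755 with the strict filter, 1 with outlier spots kept, 977 with the brightest probe, 4151 with the dye covariate, 733 and 777 without the first or the dye flip array of replicate 1, and 1889 with trend and robust moderation, of which 77.2% rose. They ran from 1 to 5939 with 1 replicate left out, lowest without replicate 2 and highest without replicate 3. Background-subtracted mean signals and outlier spots at full weight in loess, both chosen after seeing the data, gave 2 each. Each array pairs the genotypes, so the pairing is in the reported fit. Separate channels with no replicate block gave 1 gene and no member past the threshold (adjusted p = 0.0931 to 0.181). The slide as a random block could not be fitted.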

Other observations

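The genes within 3 places of the furrow collagen genes had ratios of both signs, and none of those tested passed the threshold. T14B4.5, next to dpy-2 on chromosome II, stood at a log2 value of 0.48 (SD 0.18, n = 3, adjusted p = 0.0585 in limma), and rpy-1, next to dpy-10, had 0.23 (SD 0.16, adjusted p = 0.182). At 2 places from dpy-8 on chromosome X, C31H2.4 had 0.58 (SD 0.28, adjusted p = 0.0564) on one side and tbc-7 had 0.03 (SD 0.05, adjusted p = 0.841) on the other. The genes beside dpy-9 on chromosome IV, R02D3.8 and pqbp-1.1, had -0.33 (SD 0.17, adjusted p = 0.0942) and -0.31 (SD 0.23, adjusted p = 0.129), and rcat-1, at 2 places, had -0.53 (SD 0.26, adjusted p = 0.0609). On the other side of dpy-9, pat-6, at 2 places, had 0.31 (SD 0.075, adjusted p = 0.089). Beside dpy-3 on chromosome X, F53B1.9 had -0.19 (SD 0.09, adjusted p = 0.221) and npax-2 had -0.06 (SD 0.04, adjusted p = 0.649). At 2 places from dpy-3, F53B1.8 had 0.09 (SD 0.14, adjusted p = 0.544) and pdf-2 had 0.23 (SD 0.04, adjusted p = 0.145). These neighbours were chosen after seeing the data.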
